A study of Mus musculus with 12 samples.

Results

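The 10 genes described here encode enzymes of de novo lipogenesis, fatty acid elongation and desaturation: Acly, Acaca, Acacb, Fasn, Me1, Elovl6, Scd1, Elovl5, Fads1 and Fads2. They were taken by gene symbol from gene count tables of 12 mouse liver libraries, where each had 1 row, and they are 10 of 54532 genes listed and of 28715 with a count in at least 1 library. All 10 passed the filter on low counts in every comparison. Male PPARγ flox/flox mice received an adeno-associated virus (AAV8) at 8 weeks of age that carried either Cre recombinase (PPARγ-KO) or, in littermates (wild-type), eGFP. Both vectors used the TBG promoter, so Cre was directed to hepatocytes and PPARγ was left in place in the other liver cells. All mice then ate a fast-food diet (FFD) with 21% fat by weight, 0.2% cholesterol and 34% sucrose, with glucose and fructose in the drinking water. Livers were taken after 2 or 5 months and gave 3 libraries for each genotype and time, and no chow-fed group was analysed here. Beyond the replicate number, the labels do not say that these libraries came from separate animals. Because the RNA came from whole liver, fewer cells of a type and less RNA per cell cannot be told apart.

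In de novo lipogenesis, ATP citrate lyase (Acly) releases cytosolic acetyl-CoA from citrate, acetyl-CoA carboxylase (Acaca, Acacb) turns it into malonyl-CoA, and fatty acid synthase (Fasn) builds palmitate with NADPH, part of which malic enzyme (Me1) supplies. Elovl6 lengthens palmitate to stearate and Scd1 places the first double bond, whereas Elovl5, Fads1 and Fads2 lengthen and desaturate the essential polyunsaturated fatty acids. In liver, transcription of these genes is raised by insulin through SREBP-1c and by glucose through ChREBP, and SREBP activation is restrained by polyunsaturated fatty acids and, in its cholesterol-sensing branch, by sterols.

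The libraries held between 16367775 and 27452284 counts, of which 4.70% to 6.44% were mitochondrial. Pparg, the targeted gene, was not lower in the libraries labelled PPARγ-KO. Its normalized CPM (the count scaled to a common library size by TMM) were 38.8, 41.4 and 37.7 in wild-type and 50.5, 66.5 and 52.1 in PPARγ-KO livers at 2 months. At 5 months they were 36.9, 41.4 and 37.1 in wild-type and 86.6, 93.0 and 75.1 in PPARγ-KO livers. Counts summed over a whole gene do not show whether some of its exons are missing. These counts therefore say nothing on whether PPARγ protein was lost, and the directions given here rest on the labels. Hepatocyte markers were present in every library, with 8 genes summing to 51741 to 64024 normalized CPM in wild-type and 70364 to 83256 in PPARγ-KO livers. By gene, the log2 fold change was positive for 8 and negative for 0 at 2 months (median 0.35). At 5 months it was positive for 5 and negative for 3 (median 0.15). In edgeR 1 of the 8 was called higher at 2 months and 2 at 5 months, against 1.78% and 8.9% of all genes tested. The part of the gap between the sums in the results was not tested. The 6 adipocyte markers summed to at most 35.8, with Lep at 0 in every library.

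Scd1 dominated the pathway's transcripts. The 10 genes took 3.33% to 6.96% of all counts in a library, and Scd1 alone accounted for 80.8% to 89.0% of those, ranking between 1 and 3 among all genes. Per kilobase of transcript, the wild-type mean at 2 months was 10588 normalized CPM for Scd1 against 745 for Fads2, 498 for Elovl5, 243 for Fasn, 206 for Fads1, 156 for Me1, 117 for Acly and 68.8 for Elovl6. The carboxylases were the lowest, at 27.1 per kilobase for Acacb and 18.4 for Acaca. The places of Fads2 above Elovl5 and of Fads1 above Me1 depended on the transcript length used: with all exons annotated in GENCODE M21 in place of the deposited length, the level of Fads2 was 341 and that of Fads1 148 per kilobase.

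The sequence upstream of the start site was examined because most of these genes moved in the same direction at 5 months. RefSeq promoter windows on GRCm38.p6 (mm10) were matched for 8 of the 10 genes, in 9 windows, and not for Scd1 and Fads1; the start sites of the Acaca and Acacb windows and of the second Me1 window lie 65766, 18983 and 8676 bases inside the gene. The 250 bases before the start site are shown 5′ to 3′ for Fasn (chr11:120824548-120824797, minus strand) and Acly (chr11:100528001-100528250, minus strand), whose windows start at the annotated first exon and which were both higher at 5 months, and for Elovl5 (chr9:77917115-77917364, plus strand), the window that held an E-box. Capitals mark CCAAT boxes (CCAAT or its complement ATTGG) in Fasn and Elovl5, the E-box (CACGTG) in Elovl5, and GC boxes (GGGCGG or CCGCCC) in Acly.
Fasn: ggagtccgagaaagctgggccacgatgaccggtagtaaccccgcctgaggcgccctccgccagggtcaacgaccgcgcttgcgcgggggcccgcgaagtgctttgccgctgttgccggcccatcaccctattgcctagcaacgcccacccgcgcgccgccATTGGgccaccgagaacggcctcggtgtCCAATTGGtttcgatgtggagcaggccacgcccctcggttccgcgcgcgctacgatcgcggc
Acly: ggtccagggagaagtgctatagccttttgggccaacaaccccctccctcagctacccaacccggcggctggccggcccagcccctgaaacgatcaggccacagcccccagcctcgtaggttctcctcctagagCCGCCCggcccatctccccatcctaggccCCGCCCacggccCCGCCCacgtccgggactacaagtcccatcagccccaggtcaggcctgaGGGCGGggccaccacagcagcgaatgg
Elovl5: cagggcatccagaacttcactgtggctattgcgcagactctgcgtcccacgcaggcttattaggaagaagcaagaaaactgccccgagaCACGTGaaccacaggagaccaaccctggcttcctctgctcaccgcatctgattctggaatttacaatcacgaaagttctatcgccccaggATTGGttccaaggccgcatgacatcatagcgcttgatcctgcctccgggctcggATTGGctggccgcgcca
In the Fasn window the CCAAT letters lay at -90 to -86, -62 to -58 and -59 to -55 relative to the start site, the last pair overlapping on opposite strands. Acly held 4 GC boxes, at -117 to -112, -88 to -83, -76 to -71 and -27 to -22. The Elovl5 E-box lay at -161 to -156, with CCAAT letters at -71 to -67 and -17 to -13.

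Searched on both strands, CCAAT letters were found in 4 of the 9 windows, among them the internal windows of Acacb and Me1 (33.85% of 32851 promoter windows of the same length), GC boxes in 3 (32.74%) and the E-box in 1 (6.021%). The letters of a sterol regulatory element (TCACNCCAC, 1.053% of windows), direct repeats of AGGNCA spaced as PPARs bind them (DR1, 0.3379%) and direct repeats spaced as LXRs bind them (DR4, 0.2131%) were not in any of the 9. A match is a description of the letters and not of a bound site.

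**Figure D1:**
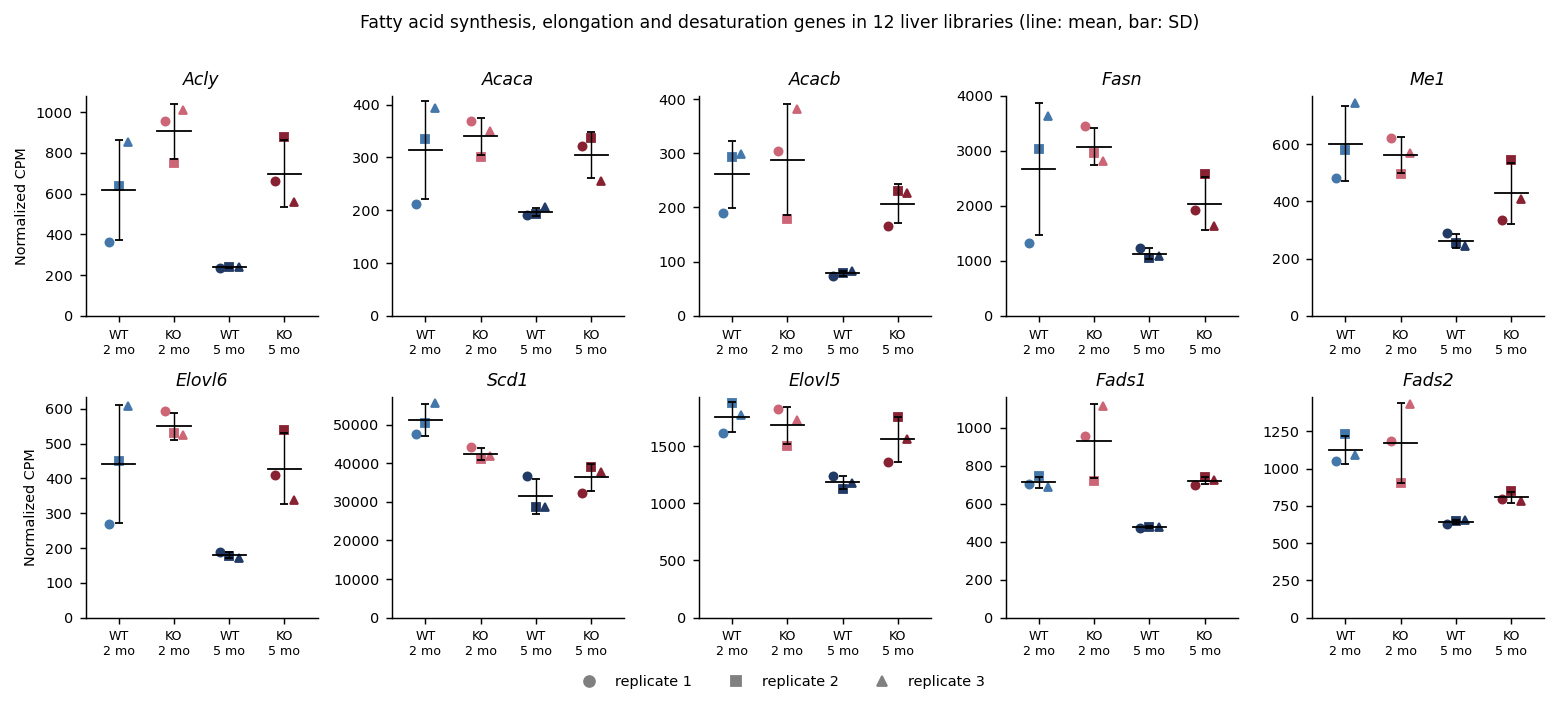
Normalized CPM (vertical axis, linear from 0) of each gene in the 12 liver libraries, by genotype and months on FFD; symbols are replicates, lines are group means and bars are SD (n = 3). The wild-type livers at 5 months are the lowest group for every gene, and at 5 months only Scd1 overlaps between the genotypes.

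The comparison at 5 months asked how the lipogenic genes differed between genotypes after prolonged FFD. Of the 10 genes, 9 were higher in livers labelled PPARγ-KO in edgeR's quasi-likelihood test (adjusted p below 0.05 over all genes), against 8.9% of the 14138 genes tested that were called higher, 9.51% called lower and 18.4% called in either direction. All 9 had every PPARγ-KO value above every wild-type value, which held for 15.9% of genes tested. The median log2 fold change of the 10 was 0.68, beside -0.01 for all genes. Changes were larger for Acly, Acacb, Elovl6 and Fasn than for Elovl5, Fads2 and Scd1 in point estimate.

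Acly, the citrate-cleaving enzyme, read 238, 239 and 241 normalized CPM in the wild-type livers and 662, 878 and 557 in PPARγ-KO livers at 5 months. The wild-type values were nearly alike, and every PPARγ-KO value was above them. Its change of 2.94-fold was the highest of the 10 (log2 1.56 ± 0.15 SE, edgeR adjusted p = 0.000363). Acss2, which makes acetyl-CoA from acetate, moved the same way, at 88.2, 85.1 and 81.7 in wild-type and 177, 247 and 213 in PPARγ-KO livers (log2 1.33, edgeR adjusted p = 2.15e-05).

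The carboxylases make malonyl-CoA, Acaca for synthesis in the cytosol and Acacb at the mitochondrial surface, where malonyl-CoA restrains fatty acid oxidation. At 5 months Acacb read 73.6, 79.6 and 82.9 in wild-type and 166, 229.8 and 226 in PPARγ-KO livers. This was 2.65-fold (log2 1.41 ± 0.12, edgeR adjusted p = 0.000126). Acaca read 191, 193 and 206 in wild-type livers and 321, 338 and 255 in PPARγ-KO livers. Neither carboxylase overlapped between genotypes, and Acaca changed by 1.56-fold (log2 0.64 ± 0.09, edgeR adjusted p = 0.000629); in a fit of all 12 libraries its adjusted p was 0.0611.

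Fasn, which assembles palmitate, read 1239.7, 1054 and 1089.6 in wild-type and 1924, 2569.7 and 1627 in PPARγ-KO livers at 5 months. It was 1.82-fold higher (log2 0.87 ± 0.16, edgeR adjusted p = 0.00656). The call was lost in the fit of all 12 libraries (adjusted p = 0.133) and without wild-type replicate 1 (adjusted p = 0.0741). Me1, the NADPH-producing malic enzyme, read 288, 254 and 243 against 334, 544 and 408. Its groups did not overlap but lay close, with log2 0.72 ± 0.18 and an edgeR adjusted p of 0.0414, and it was called in 7 of 13 alternative settings. The adjusted p of Me1 was 0.0909 without PPARγ-KO replicate 3 and 0.136, 0.137 and 0.133 without wild-type replicates 1, 2 and 3.

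Elovl6, the elongase acting on palmitate, read 188, 178 and 172 in wild-type and 409, 539.8 and 337 in PPARγ-KO livers at 5 months. All PPARγ-KO livers were above the wild-type range, by 2.41-fold in the fit (log2 1.27 ± 0.16, edgeR adjusted p = 0.00237). Elovl5, which lengthens polyunsaturated fatty acids, read 1243, 1128 and 1176 against 1358, 1757 and 1563. Its change was smaller, 1.33-fold (log2 0.41 ± 0.09, edgeR adjusted p = 0.00864). Leaving out wild-type replicate 2 ended the call (adjusted p = 0.0511).

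Fads1, the delta-5 desaturase, varied little within groups at 5 months. It read 472, 479 and 478 in wild-type and 699, 739 and 725 in PPARγ-KO livers, with coefficients of variation of 0.826% and 2.82%. It was 1.52-fold higher (log2 0.61 ± 0.07, edgeR adjusted p = 4.93e-05). Fads2, the delta-6 desaturase encoded beside it on chromosome 19, read 626, 647 and 652 against 793, 849 and 781. The groups did not overlap, with 1.27-fold (log2 0.34 ± 0.07, edgeR adjusted p = 0.004); the fit of all 12 libraries gave an adjusted p of 0.0961.

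Scd1, the delta-9 desaturase that makes oleate, was the exception at 5 months. It read 36748, 28681 and 28765 in wild-type and 32364, 38977 and 37676 in PPARγ-KO livers. Wild-type replicate 1 lay inside the PPARγ-KO range, and the change was log2 0.22 (95% interval -0.04 to 0.48, edgeR adjusted p = 0.238). Without that library the groups gave log2 0.35 with an adjusted p of 0.01, so the result for Scd1 rested on it. Wild-type replicates 2 and 3 at 5 months were the closest pair of libraries, with a chi-square of 2.44 per gene against 9.40 to 31.7 for the other pairs within groups; this is above sampling noise, and they were kept as separate samples.

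**Figure D2:**
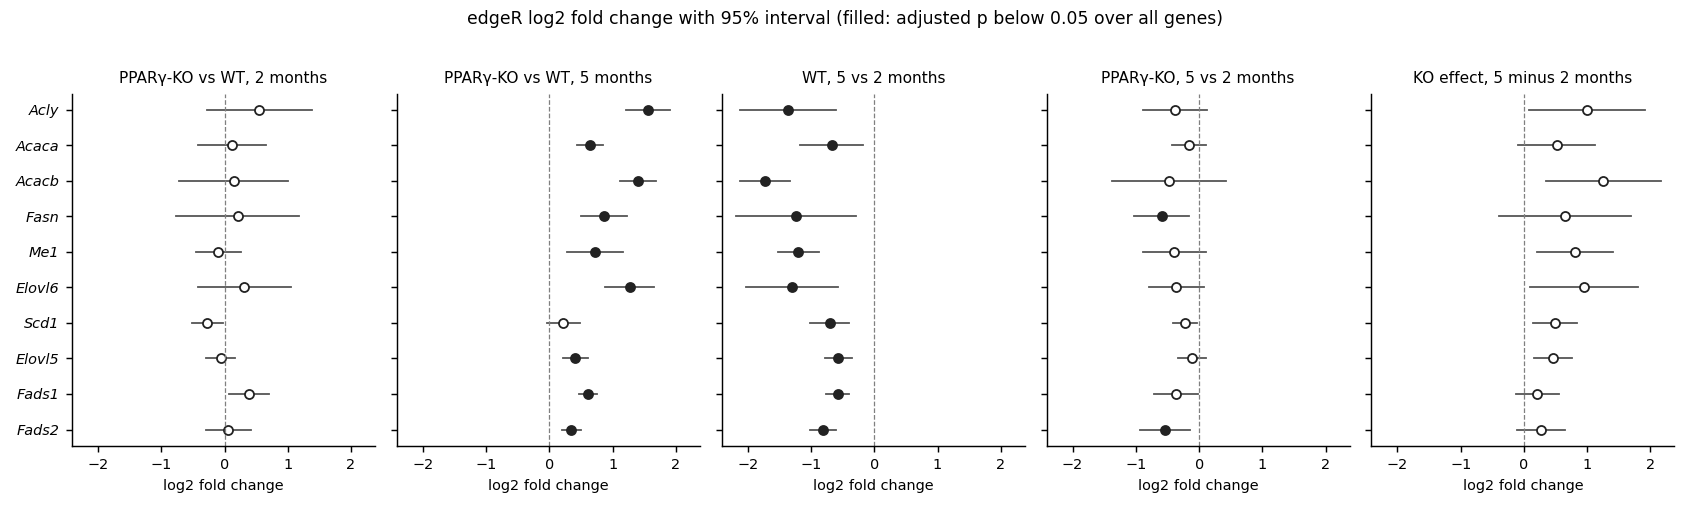
Log2 fold change (horizontal axis) of each gene in the 4 comparisons and in the difference between the KO effects at 5 and 2 months; points are edgeR estimates, lines their 95% intervals, and filled points have an adjusted p below 0.05 over all genes. At 5 months 9 of 10 intervals lie above 0 with filled points, at 2 months no point is filled, and in wild-type livers all 10 lie below 0 over time.

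The same comparison at 2 months gave a different picture. None of the 10 genes was called by edgeR (0 of 10, against 3.56% of 14573 genes tested, 1.78% called higher and 1.78% called lower), 2 had an unadjusted p below 0.05 (Scd1 and Fads1), and DESeq2 also called 0. The estimates were positive for 7 genes and negative for 3, with a median of 0.13 beside -0.00 for all genes. Wild-type replicate 1 stood apart: the 9 genes other than Scd1 took 0.627% of its counts, against 0.997% and 1.07% in the other wild-type livers at this time. It also had the highest mitochondrial share of all libraries, 6.44%, and the part of that share in the result was not tested. Without this library edgeR called 1577 genes in all in place of 519, and 1 of the 10 (Scd1, lower).

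Scd1 was the only one of the 10 without overlap at 2 months. It read 47670.1, 50312 and 55629 in wild-type and 44150.1, 41178 and 41747 in PPARγ-KO livers. Every PPARγ-KO value was lower, as held for 12% of genes tested, and the change was log2 -0.27 (SE 0.11, 95% interval -0.52 to -0.03, unadjusted p = 0.0333, edgeR adjusted p = 0.216). It was called without wild-type replicate 1 (adjusted p = 0.0214) and with no filter on low counts (adjusted p = 0.0295), and with the replicate block its adjusted p was 0.414.

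Fads1 read 704, 744 and 685 in wild-type and 955, 721 and 1112 in PPARγ-KO livers at 2 months. PPARγ-KO replicate 2 fell inside the wild-type range, and the estimate was log2 0.39 (95% interval 0.07 to 0.70, edgeR adjusted p = 0.179). It was called without that library (adjusted p = 0.0479), in the fit of all 12 libraries (adjusted p = 0.0466) and with no filter (adjusted p = 0.000172). Fads2 read 1050.4, 1233 and 1089 against 1183, 899.6 and 1431. Its groups overlapped fully, with log2 0.06 and an interval from -0.29 to 0.41.

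The synthesis genes varied widely among wild-type livers at 2 months. Fasn read 1323, 3026 and 3635 in wild-type and 3449, 2953 and 2809 in PPARγ-KO livers. Wild-type replicate 1 was far below the other livers, and the estimate of log2 0.21 (95% interval -0.77 to 1.18) turned to -0.12 without it. Acly read 364, 639 and 852 against 957, 753 and 1009, with log2 0.55 (95% interval -0.27 to 1.38, edgeR adjusted p = 0.448). Its interval therefore included both no change and a change of more than 2-fold. Elovl6 read 270, 449 and 608 against 594, 529.6 and 526, and its interval ran from -0.42 to 1.04.

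The remaining genes also overlapped between genotypes at 2 months. Acaca read 213, 336 and 393 in wild-type and 368, 301 and 350 in PPARγ-KO livers (log2 0.12). Acacb read 190.0, 294 and 299 against 305, 179 and 381 (log2 0.14), with the lowest and the highest of the 6 both in PPARγ-KO livers. Elovl5, at 1612, 1879 and 1774 against 1821, 1506 and 1728, had the narrowest interval (log2 -0.06, 95% interval -0.29 to 0.17). Me1 read 483, 578 and 744 against 621, 496 and 568 (log2 -0.10).

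Over time on FFD, transcripts of all 10 genes were lower in the wild-type livers. Each was lower at 5 than at 2 months in edgeR (10 of 10, against 22.7% of 14491 genes tested called lower and 46.4% called in either direction), and none overlapped between the times (28% of genes tested lay wholly lower). Acacb changed most, by log2 -1.73 (edgeR adjusted p = 0.00012); its highest value at 5 months, 82.9, was below its lowest at 2 months, 190.0. Acly changed by -1.37, Elovl6 by -1.30, Fasn by -1.24 and Me1 by -1.20. The smaller changes were -0.81 for Fads2, -0.71 for Scd1, -0.67 for Acaca, -0.58 for Fads1 and -0.57 for Elovl5. The calls of Fasn, Acaca, Elovl6 and Acly were lost without 1 or more single libraries: 6 members were called without wild-type replicate 1 or replicate 2 at 5 months, and 8 without replicate 3 at 5 months or replicate 2 or 3 at 2 months. Mice of the later time were older, and the sequencing run is not given in the sources used here, so diet duration, age and a possible batch cannot be told apart.

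In livers labelled PPARγ-KO the estimates over time were also all negative but smaller, with a median of -0.37 against -1.01 in wild-type livers. Only Fasn (log2 -0.59, edgeR adjusted p = 0.0393) and Fads2 (log2 -0.54, edgeR adjusted p = 0.0369) were called lower, 2 of 10 beside 22.2% of 14478 genes tested called lower and 44.9% called in either direction. Fasn fell from 2809 to 3449 at 2 months to 1627 to 2569.7 at 5 months without overlap. Fads2 and Scd1 did not overlap either, so 3 of the 10 lay wholly lower, beside 27.5% of genes tested. Scd1 had a log2 of -0.22 and an edgeR adjusted p of 0.0528. The number called was not stable: it was 5 with DESeq2, 0 without PPARγ-KO replicate 1 at either time, 1 without replicate 3 at either time, and 5 without replicate 2 at 5 months. Elovl5, with log2 -0.11 (95% interval -0.34 to 0.11), moved least.

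The test of the difference itself did not separate the genotypes' courses at the threshold. The KO effect at 5 months minus that at 2 months was positive for all 10 genes, from 0.21 for Fads1 to 1.25 for Acacb, with a median of 0.58. None passed in edgeR (0 of 10, against 1.57% of 15127 genes tested), and 6 had an unadjusted p below 0.05: Acacb, Acly, Scd1, Elovl5, Elovl6 and Me1. DESeq2 called 2 (Acacb and Me1). Without wild-type replicate 1 at 2 months, edgeR called 4 (Acaca, Acly, Elovl5 and Elovl6), with adjusted p from 0.017 to 0.0433. It called 1 (Scd1) when wild-type replicate 1 at 5 months was left out. A larger genotype effect at 5 than at 2 months was therefore not shown for any of the 10 across settings, although the estimates were as large as 2.38-fold for Acacb (95% interval of the log2 difference 0.34 to 2.16).

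Ratios of genes within a library do not depend on its scaling. Of 6 ratios compared, 4 differed in an exact two-sided permutation test within each time (400 arrangements, smallest possible p = 0.005). The test covers both times together, and the values at a single time were not tested. The pairs were taken from genes chosen with earlier results of these data known. How often other gene pairs would pass was not tested, so the 4 of 6 have no background share beside them. The same holds for the lack of overlap between genotypes given below for single ratios. With same-numbered livers at 2 months kept as pairs, an alternative chosen after the data were seen (160 arrangements, smallest possible p = 0.0125), the same 4 passed, with adjusted exact permutation p of 0.025 to 0.0375. Fads1 over Fads2 was 0.634 ± 0.034 in wild-type and 0.795 ± 0.016 in PPARγ-KO livers at 2 months, and 0.742 ± 0.010 and 0.893 ± 0.031 at 5 months (SD, n = 3). The PPARγ-KO values were above all wild-type values at both times, for a mean log2 difference of 0.30 (exact permutation p = 0.005, adjusted over the 6 ratios 0.010).

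Acly over Acaca behaved alike, at 1.93 ± 0.23 against 2.66 ± 0.20 at 2 months and 1.22 ± 0.04 against 2.28 ± 0.28 at 5 months, without overlap (log2 0.68, exact permutation p = 0.005, adjusted 0.010). Scd1 over Fasn was lower in PPARγ-KO livers at both times. It was 36.0, 16.6 and 15.3 in wild-type and 12.8, 13.9 and 14.9 in PPARγ-KO livers at 2 months. The 5-month values were 29.6, 27.2 and 26.4 in wild-type and 16.8, 15.2 and 23.2 in PPARγ-KO livers (log2 -0.61, exact permutation p = 0.005, adjusted 0.010). At 2 months the gap was narrow except for wild-type replicate 1, which had the low Fasn value.

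Elovl6 over Elovl5 was higher in PPARγ-KO livers, 0.250 ± 0.088 against 0.327 ± 0.024 at 2 months with overlap and 0.152 ± 0.005 against 0.275 ± 0.051 at 5 months without (log2 0.64, exact permutation p = 0.015, adjusted 0.0225). With medians in place of means its adjusted p was 0.072. Me1 over Fasn (log2 -0.28, exact permutation p = 0.105) and Acaca over Acacb (log2 -0.35, exact permutation p = 0.15) did not pass. At 5 months alone Acaca over Acacb was 2.50 ± 0.08 in wild-type and 1.51 ± 0.41 in PPARγ-KO livers and did not overlap, whereas at 2 months it was 1.19 ± 0.11 and 1.27 ± 0.39.

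**Figure D3:**
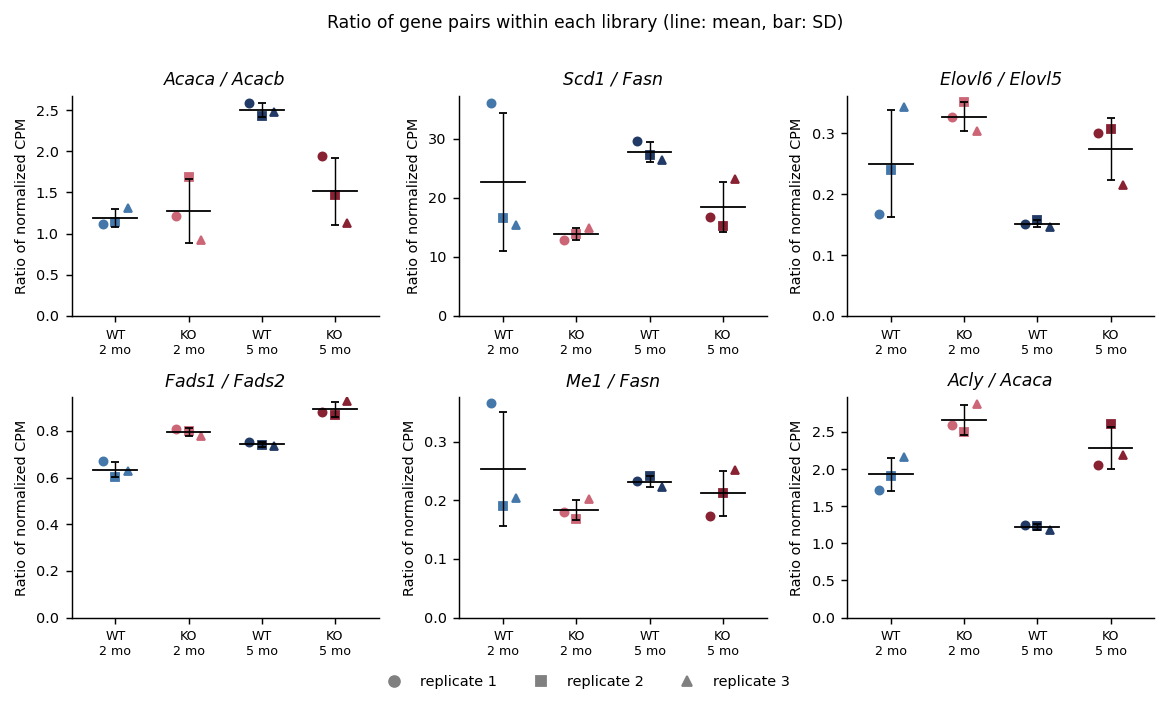
Ratio of the normalized CPM of 6 gene pairs in each library (vertical axis, linear from 0), by genotype and months on FFD; symbols are replicates, lines are means and bars are SD (n = 3). Fads1 / Fads2 and Acly / Acaca are higher and Scd1 / Fasn lower in PPARγ-KO livers at both times without overlap.

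Within groups the genes did not vary as 1 block. After group means were taken out, the 45 pairwise correlations of log2 normalized CPM over 12 libraries ran from 0.009 to 0.973 (median 0.558), all positive. Fasn followed Elovl6 (0.973), Acaca (0.923) and Acly (0.919) closely, and Fads1 hardly at all (0.009). Acacb followed Fads2 (0.850) and Fads1 (0.812) more than Fasn (0.462). The libraries behind this differed: wild-type replicate 1 at 2 months was low in Fasn, Acly, Elovl6 and Acaca (deviations of -0.88, -0.68, -0.63 and -0.51), less so in Acacb (-0.43) and Me1 (-0.29), and near its group mean in Fads1 (-0.01), while PPARγ-KO replicate 2 at 2 months was low in Acacb, Fads2 and Fads1 (-0.62, -0.35 and -0.34) but not in Fasn (-0.05). These points share library and depth and are given as a description.

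**Figure D4:**
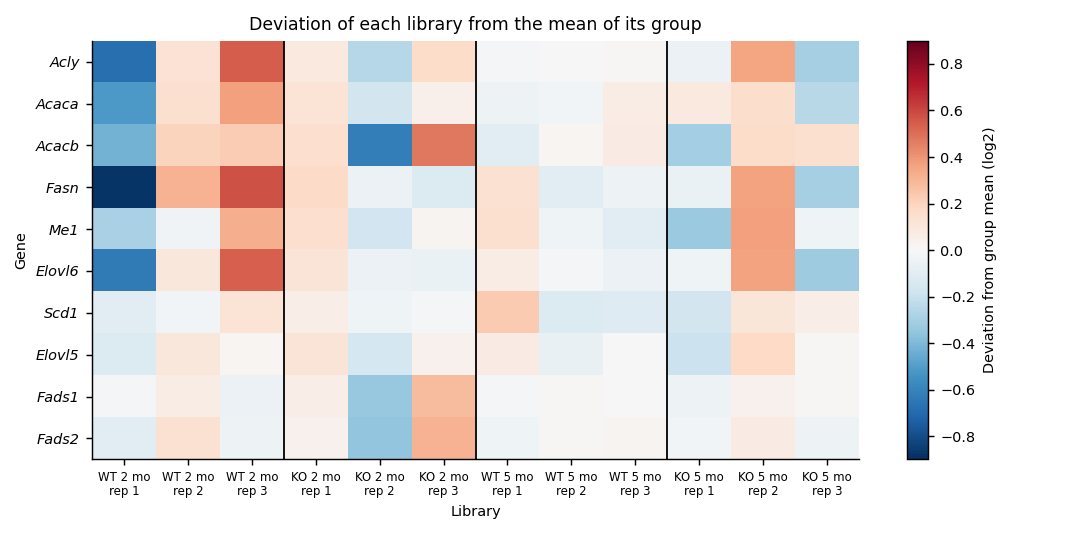
Deviation of each library from the mean of its group in log2 normalized CPM (color), by gene (rows) and library (columns, divided by group). Wild-type replicate 1 at 2 months is low for Fasn, Acly, Elovl6 and Acaca (-0.88 to -0.51) and less so for Acacb (-0.43), PPARγ-KO replicate 2 at 2 months for Acacb, Fads1 and Fads2 (-0.62 to -0.34), and the wild-type livers at 5 months vary least for every gene except Scd1.

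Among other genes of the pathway, listed by role, those that feed acetyl-CoA and NADPH into synthesis included 5 of 11 called higher at 5 months, against 8.9% of all genes, and 0 called lower in edgeR. Beside Acss2 these included Pgd, an NADPH-producing enzyme of the pentose phosphate pathway (log2 0.66, edgeR adjusted p = 0.00516; 0.0684 without wild-type replicate 1), and Slc25a1, the mitochondrial citrate carrier (log2 0.46, edgeR adjusted p = 0.000679). The median of the list was only 0.13. At 2 months 1 of the 11 was called, Acss2, beside 1.78% of all genes called higher. It read 151, 160 and 155 in wild-type and 236, 192 and 285 in PPARγ-KO livers (log2 0.61, edgeR adjusted p = 0.0333), a call kept in 7 of 13 alternative settings.

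The other desaturases, elongases and their partners went both ways at 5 months, with 5 of 17 called higher and 5 lower (background 8.9% and 9.51%, median 0.20). Elovl2, which lengthens long polyunsaturated fatty acids, was higher (log2 0.52, edgeR adjusted p = 0.000399). Hacd4, a dehydratase of the elongation cycle, was lower (log2 -1.14, edgeR adjusted p = 0.000507). Elovl7, an elongase of saturated fatty acids, was also lower (log2 -0.81, edgeR adjusted p = 0.044, called in 6 of 13 alternatives). Both had few counts: in wild-type and PPARγ-KO livers Hacd4 read 6.94, 8.87 and 8.36 against 3.92, 3.08 and 3.92. Elovl7 read 2.85, 4.08 and 5.49 against 1.98, 2.41 and 2.72. Hsd17b12, the ketoacyl reductase of elongation, was lower at 2 months (log2 -0.53, edgeR adjusted p = 0.0177, called in 8 of 13 alternatives) and at 5 months (log2 -0.38). It was the only 1 of 17 called at 2 months, beside 1.78% of all genes called lower. The Scd1 paralogs Scd2 and Scd3 were not called at either time, and Scd4 and Elovl4 were too low to test. Macrophage markers moved alongside at 5 months: all 8 had negative estimates and 6 were called lower (background 9.51%). They summed to 1092 to 1227 normalized CPM in wild-type against 516 to 671 in PPARγ-KO livers, and stellate cell markers to 675 to 848 against 520.4 to 596. Their part in the lower values was not tested.

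Genes that control the carboxylases gave 2 of 11 called higher and 1 lower at 5 months, near the background of 8.9% and 9.51%. Thrsp, known as Spot 14 and induced along with lipogenic enzymes, was higher (log2 1.16, edgeR adjusted p = 0.0042), at 448, 360.0 and 355 in wild-type and 1006, 923 and 653 in PPARγ-KO livers. Prkag2, a regulatory subunit of the AMP-activated kinase that inhibits acetyl-CoA carboxylase, was higher (log2 0.79, edgeR adjusted p = 2.43e-05), and Mlycd, which degrades malonyl-CoA, was lower (log2 -0.32, edgeR adjusted p = 0.00534). At 2 months only Hlcs, which attaches biotin to the carboxylases, was called, beside 1.78% of all genes called lower. Hlcs was lower (log2 -0.62, edgeR adjusted p = 0.0309, called in 8 of 13 alternatives). Of 5 acyl-CoA synthetases and binding proteins, Acsl5 was higher at 5 months (log2 0.41, edgeR adjusted p = 0.00299; background 8.9%). Of 6 genes of mitochondrial fatty acid synthesis 0 were called at either time in edgeR, beside 3.56% of all genes at 2 months and 18.4% at 5 months.

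Of 12 lipogenic regulators, 4 were called higher and 0 lower at 5 months in edgeR (background 8.9% and 9.51%), and 1 higher and 0 lower at 2 months (background 1.78% each), with medians of -0.04 and 0.03. Srebf1, which encodes SREBP-1, was not called between genotypes at 2 months (log2 0.02) or at 5 months (log2 -0.30, edgeR adjusted p = 0.0958), where it read 755, 738 and 723 in wild-type and 621, 688 and 474 in PPARγ-KO livers. Every PPARγ-KO value was below the wild-type range at 5 months. Over time it fell in wild-type (log2 -0.59, edgeR adjusted p = 0.00234) and in PPARγ-KO livers (log2 -0.92, edgeR adjusted p = 0.0114). Mlxipl, which encodes ChREBP, was higher in PPARγ-KO livers at 2 months (log2 0.46, edgeR adjusted p = 0.0267) and 5 months (log2 0.45, edgeR adjusted p = 0.024), in 8 and 10 of 13 alternatives respectively, and it did not overlap at either time.

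Insig1, a sterol-regulated retention protein and itself an SREBP target, was the regulator with the largest change at 5 months. It read 186, 189 and 193 in wild-type and 401, 471 and 406 in PPARγ-KO livers (log2 1.18, edgeR adjusted p = 1.08e-06). At 2 months it read 299, 276 and 357 against 455, 351 and 505 and was not called (log2 0.49, edgeR adjusted p = 0.106). Mbtps2, a protease that releases SREBP, was called at 5 months (log2 0.39, edgeR adjusted p = 0.0347) but in only 5 of 13 alternatives. Insig2 and Nr1h3, which encodes LXRα, were not called.

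**Figure D5:**
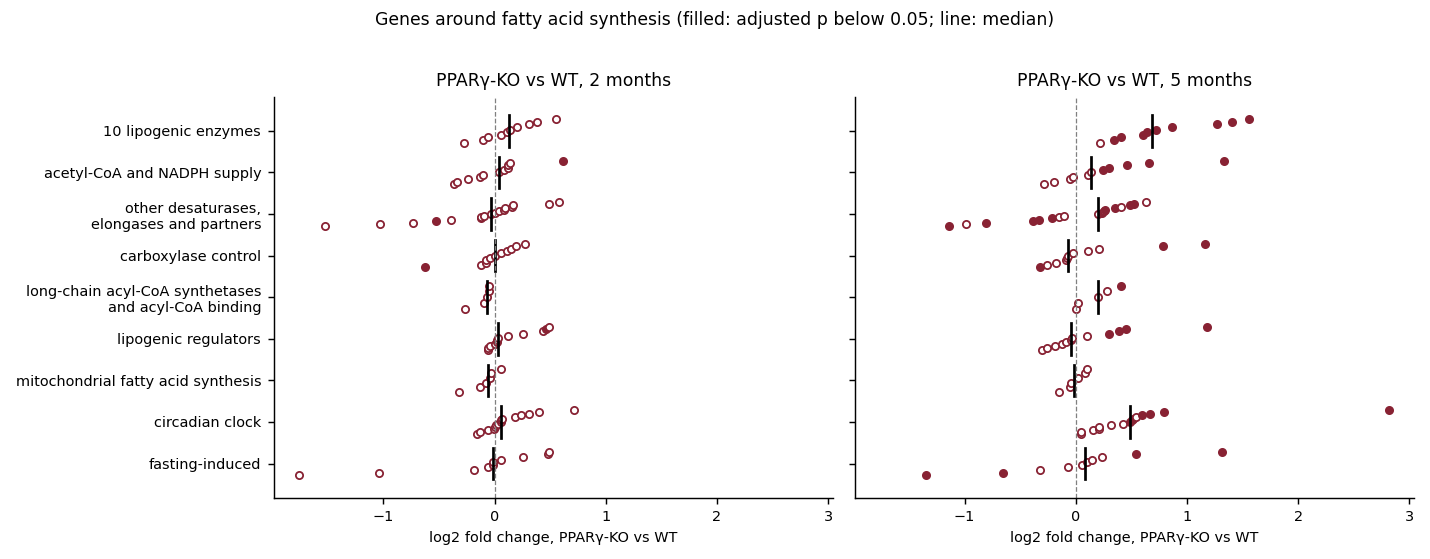
Log2 fold change, PPARγ-KO vs wild-type (horizontal axis), of the 10 enzymes and of genes in 8 further lists at 2 and 5 months; each point is a gene, filled where the edgeR adjusted p was below 0.05, and lines are list medians. At 5 months the enzymes have the highest median (0.68), followed by the clock genes (0.49), while the other lists lie between -0.07 and 0.20.

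Circadian clock genes have levels that depend on the hour of tissue collection. At 5 months all 15 had positive estimates and 7 were called higher (background 8.9%, median 0.49), among them Ciart (log2 2.81, edgeR adjusted p = 0.00319), Per2 (log2 0.79, edgeR adjusted p = 0.017) and Cry2 (log2 0.67, edgeR adjusted p = 0.000505). Their summed normalized CPM was 426 to 444 in wild-type and 539 to 609 in PPARγ-KO livers. At 2 months 0 of 15 were called in edgeR (background 3.56% in either direction), and the sums were 955 to 1079 and 996 to 1104. Over time 11 of the 15 were lower and 3 higher in wild-type livers, and 10 lower and 3 higher in PPARγ-KO livers. Of all genes tested, 22.7% and 22.2% were called lower over time in these genotypes, and 23.8% and 22.7% higher. The hour of collection was not given in the sources used here, and its part in the enzyme values was not tested.

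Genes induced by fasting showed no common direction at 5 months, with 2 of 10 called higher and 2 lower (background 8.9% and 9.51%, median 0.08). Ppargc1a, a coactivator of gluconeogenic genes, was higher (log2 1.32, edgeR adjusted p = 4.65e-06), whereas Cyp4a14, a PPARα target, was lower (log2 -1.35, edgeR adjusted p = 9.97e-07), as was G6pc, the glucose-releasing phosphatase (log2 -0.66, edgeR adjusted p = 6.06e-05). At 2 months 0 of 10 were called in edgeR (background 3.56% in either direction). Cyp4a14 lay wholly lower then, as held for 12% of genes tested, at 385, 434 and 301 in wild-type and 66.4, 98.6 and 166 in PPARγ-KO livers.

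The genes most like the 10 enzymes were found by correlation with the mean of their standardized log2 levels over the 12 libraries. The closest was Gpam (r = 0.980), which starts glycerolipid synthesis. Its log2 fold change was 1.39 between genotypes at 5 months and -1.54 over time in wild-type livers. Because it was picked by likeness over these same libraries, these changes largely follow from that choice and are not separate support. Mttp (0.974), which loads lipid onto lipoproteins, Zc3h7b (0.973), Lss (0.948), the lanosterol synthase of cholesterol synthesis, Akr1c19 (0.947), Atp7b (0.945), Thrsp (0.944), Rptor (0.942), Gm5182 (0.940) and Ralgapa2 (0.939) followed. After group means were taken out the closest were Rab43 (0.945), Mrps22 (0.933), Hmgcs1 (0.931), which uses acetoacetyl-CoA, and Aacs (0.929), which makes it. Gpam (0.927), Ralgps1 (0.918), Ctbp2 (0.917), Gm36435 (0.914), Zc3h7b (0.913) and Armcx6 (0.913) came next. Ctbp2, Gm36435 and Armcx6 had few counts, with wild-type means at 2 months of 3.72, 1.31 and 0.878 normalized CPM. These correlations are descriptions over 12 libraries that share groups.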

How the data were processed

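Total liver RNA was sequenced in 12 libraries, 3 per genotype and time. Per the labels the reads were aligned to mm10; the study's methods name STAR and the submitters' processing notes HISAT2, and the counting program, annotation and strand setting are not given in the sources used here. The authors deposited unnormalized whole-number counts per gene, 1 table per library, which held no fold changes or p-values. Directions follow the labels.

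Genes were tested with edgeR 4.0.16 in R 4.3.3 (filterByExpr, TMM, robust quasi-likelihood test, Benjamini-Hochberg adjustment over all genes tested, threshold 0.05), with 6 libraries in each comparison and all 12 in the test of the difference between KO effects. Intervals are 95%. DESeq2 1.42.0 was an alternative, beside other scalings, filters, thresholds and each library left out. The study's methods called genes by a p under 0.05 and took those past a 1.3-fold change into pathway analysis; an unadjusted p under 0.05 with a 1.3-fold change was run as an alternative. Normalized CPM used TMM over 12 libraries. Ratios of members were compared by an exact two-sided permutation test of the mean log2 ratio within each time, adjusted over 6 ratios. Nothing in the labels beyond the replicate number says that libraries came from separate animals, so p-values measure the spread between these samples. Depth (16367775 to 27452284 counts) gave each of the 10 genes at least 1241 counts in every library. Overlapping genes held at most 1.64% of a member's counts. The steps were tested on simulated data.

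The 10 genes and the gene lists were chosen with earlier results of these data known. Named genes were the 10, Pparg, 5 regulators, up to 3 called genes with the largest change per list and time, and the 10 genes most alike. After group means were removed, same-numbered libraries at 2 months correlated at 0.218, 0.323 and 0.14 over 5000 genes, and differently numbered ones at -0.273 to 0.113. Same-numbered libraries at 5 months gave -0.0806, -0.0586 and -0.172. Wild-type livers of different times also gave 0.239, 0.186 and 0.0198 for the same number, and -0.288 to 0.266 for different numbers. The values at 2 months therefore do not establish pairs, and pairing was tried only as an alternative. The pairing comes from the data and not from the labels. With the replicate block 817 genes were called at 2 months in place of 519.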

Additional observations from a re-analysis of the deposited data

Results flagged for a closer look

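In the test of the KO effect at 5 months minus that at 2 months, 0 of the 10 enzymes passed in edgeR, but 4 other genes named above did. Prkag2 differed by log2 0.51 (edgeR adjusted p = 0.018, called in 15 of 18 alternatives), with group means of 34.6 and 41.7 normalized CPM in wild-type and PPARγ-KO livers at 2 months and 20.8 and 35.7 at 5 months. Cry2 differed by log2 0.63 (edgeR adjusted p = 0.0357, called in 9 of 18 alternatives), with means of 46.3 and 47.1 at 2 months and 20.3 and 32.0 at 5 months. Ciart differed by log2 2.79 (edgeR adjusted p = 0.0338, called in 11 of 18 alternatives), with means of 12.2 and 12.3 at 2 months and 0.880 and 6.15 at 5 months. Pparg differed by log2 0.62 (edgeR adjusted p = 0.0432, called in 8 of 18 alternatives), with means of 39.3 and 56.3 at 2 months and 38.5 and 84.9 at 5 months.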

How the results depend on the processing

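At 5 months all 10 estimates stayed positive in every alternative, and 6 to 9 of the 10 genes were called (7 to 9 with 1 library left out, among 1593 to 3078 genes called in all). The fit of all 12 libraries called 6. With the replicate block 8 were called, Me1 being lost (adjusted p = 0.062), and over time in wild-type livers the block ended the calls of Elovl6 (0.0555) and Fasn (0.146); it changed no other call of the 10 genes, and pairing the 2-month livers in the test of ratios changed no call of the 6. Over time in wild-type livers all 10 estimates stayed negative and 6 to 10 were called with 1 library left out. In PPARγ-KO livers the 2 calls over time became 5 with DESeq2, 4 with library size alone or at an adjusted p below 0.1, and 0 to 5 with 1 library left out.

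At 2 months the 0 calls became 1 in the fit of all 12 libraries (Fads1), 2 with no filter, 1 at an unadjusted p below 0.05 with 1.3-fold change, and 0 to 1 with 1 library left out. The 519 genes called in all became 947 with DESeq2, 1153 with all 12 libraries, 1562 with no filter, 817 with the replicate block, 1063 at an adjusted p below 0.1, 1608 at the unadjusted rule, and 117 to 1577 with 1 library left out. Among the 10 genes, signs turned only at 2 months. With 1 library left out, the estimates ran from -0.12 to 0.50 for Fasn and from -0.10 to 0.31 for Acaca (both negative without wild-type replicate 1), and from -0.11 to 0.39 for Acacb (-0.11 without PPARγ-KO replicate 3 and -0.04 without wild-type replicate 1). They ran from -0.11 (without PPARγ-KO replicate 3) to 0.22 for Fads2, which was -0.024 with library size alone. Elovl5 ran from -0.12 to 0.016 (without PPARγ-KO replicate 2), and Me1 from -0.23 to 0.082 (without wild-type replicate 3). The cause was not tested.

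For the difference between KO effects, the 0 calls became 2 with DESeq2, 2 with no filter (Elovl5 and Scd1), 6 at the unadjusted rule and 0 to 4 with 1 library left out, and the 238 genes in all became 565, 793, 519 (adjusted p below 0.1), 1563 and 83 to 567. Of the ratios, Elovl6 over Elovl5 gave 0.72 with medians (adjusted p = 0.072). Leaving out 1 library gave -0.47 to -0.25 for Acaca over Acacb (adjusted p = 0.036 without PPARγ-KO replicate 2 at 2 months), -0.36 to -0.13 for Me1 over Fasn (-0.34, adjusted p = 0.018 without PPARγ-KO replicate 3 at 5 months), and kept the calls of the other 4. With 3 libraries per group, the intervals at 2 months included changes of over 1.3-fold for 9 of the 10 genes. Each of the 10 had at least 1241 counts in every library; the effect of depth was not tested.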
